A study of Mus musculus with 8 samples.

Results

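The cytosolic ribosome is assembled from ribosomal RNAs and a fixed set of proteins, whose genes are named Rps for the small subunit and Rpl for the large one. Every row of the hippocampal count table whose symbol begins with Rpl or Rps and a digit was taken, together with Rplp0, Rplp1, Rplp2 and Rpsa. Of 99 rows with such a name, 10 Rps6k kinases and 3 numbered pseudogenes were left out, which gave 86 of 24078 entries. They comprise 77 proteins of the ribosome itself (46 of the large and 31 of the small subunit), 8 paralogs, and Rps19bp1, which encodes a binding protein of Rps19 and no ribosomal protein. The libraries came from the hippocampus of 4 mice homozygous for the targeted allele Wfs1tm1Koks (replicates 15 to 18) and of 4 wild-type mice (replicates 7 to 10), with a different animal behind each according to the labels. The strain label of both groups names the same allele, and age, sex and litter are not given in the labels. Wfs1 encodes wolframin, a glycoprotein of the endoplasmic reticulum that is lost in human Wolfram syndrome.

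Most ribosomal proteins are made in equal numbers for each ribosome. Ribosomal protein mRNAs are short, abundant and present in every cell type. Most of these mRNAs begin with a terminal oligopyrimidine (TOP) tract, a C at the cap followed by a run of C and T, through which the mTORC1 kinase adjusts their translation. In neurons ribosomes are also found in dendrites, where local protein synthesis supports synaptic plasticity.

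The TOP tract was looked for in the RefSeq promoters of build GRCm38.p6, which were at hand for 65 of the 86 genes. A tract was scored where a C followed by at least 4 pyrimidines (C or T) began within 5 bases of the annotated start on the gene's strand. It was found in 29 of the 65 (44.6%), against 21.2% of 27025 genes with a promoter entry, and a tract beginning exactly at the start was found in 13 (20%), against 3.01%. The windows shown run from 30 bases before the start to 20 bases from it onward, and capitals mark the tract. They were picked to set genes that fell, did not pass the test or rose beside each other. Rps6 lies at chr4:86857348-86857397 (minus strand), Rps27 at chr3:90213629-90213678 (minus), Rpl15 at chr14:18270967-18271016 (minus), Rpl18 at chr7:45718041-45718090 (plus), Rps12 at chr10:23787190-23787239 (minus), Rps15a at chr7:118116128-118116177 (minus), Rps27l at chr9:66946056-66946105 (plus, the first of its starts) and Rpl7l1 at chr17:46782637-46782686 (minus).
Rps6: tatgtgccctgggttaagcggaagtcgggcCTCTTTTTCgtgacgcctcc
Rps27: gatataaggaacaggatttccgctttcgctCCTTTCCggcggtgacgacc
Rpl15: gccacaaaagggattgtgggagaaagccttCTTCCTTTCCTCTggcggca
Rpl18: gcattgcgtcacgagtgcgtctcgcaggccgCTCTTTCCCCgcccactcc
Rps12: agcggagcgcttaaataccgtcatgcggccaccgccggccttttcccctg
Rps15a: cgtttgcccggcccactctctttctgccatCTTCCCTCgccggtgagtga
Rps27l: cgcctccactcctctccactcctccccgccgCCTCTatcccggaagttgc
Rpl7l1: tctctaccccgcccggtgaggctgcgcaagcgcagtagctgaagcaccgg
Rps6, Rps27, Rpl15, Rpl18 and Rps12 fell in homozygous hippocampus, Rps15a did not pass the test, and Rps27l and Rpl7l1 rose. Tracts were thus present among genes with each of these outcomes. Rps12 has a pyrimidine run only further into its transcript, while Rps15a carries a tract at its start. Among the 57 ribosomal proteins with a promoter entry, the median log2 fold change was -1.06 for the 27 with a tract and -1.01 for the 30 without. The motif CCGGAAG, searched on both strands of the 300 bases, was present in 26 of the 65 promoters (40%) and in 9.93% of all, and AAGATGG, searched likewise, in 10 (15.4%) and 7.28%. TATAAA, searched on the gene's strand upstream of the start, was present in 1 of the 65 (1.54%) and in 2.68% of all promoters. These matches are descriptions of the letters in the windows.

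Counts of the 86 genes were summed and divided by the total of each library. They took 0.287%, 0.281%, 0.321% and 0.306% of the counts in homozygous replicates 15, 16, 17 and 18, against 0.469%, 0.496%, 0.460% and 0.577% in wild-type replicates 7, 8, 9 and 10. All homozygous libraries lay below all wild-type libraries, and wild-type replicate 10 stood highest. The mean share was 0.299 ± 0.0185% in homozygous and 0.500 ± 0.0534% in wild-type libraries (SD, n = 4 each).

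**Figure D1:**
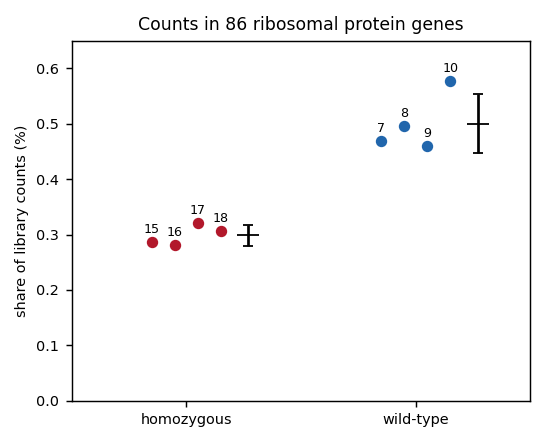
Share of each library's counts (percent) falling in the 86 genes, with 1 point per library and the mean ± SD of each genotype. The 4 homozygous libraries lie between 0.281% and 0.321%, below the 4 wild-type libraries at 0.460% to 0.577%.

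Library totals ran from 3250949 to 6747411 counts. Wfs1 itself averaged 14.8 ± 2.61 CPM (read counts scaled to the library's total and TMM factor) in homozygous and 52.0 ± 7.49 CPM in wild-type libraries (SD, n = 4 each), and the log2 fold change was -1.81 (SE 0.16). Its adjusted p was 2.62e-05 (edgeR quasi-likelihood test, Benjamini-Hochberg over 20478 genes). Differences between the genotypes were widespread in that test: 20.4% of genes were called lower and 20.7% higher at an adjusted p under 0.05, and 18.8% lay below and 18.8% above wild-type with no overlap between the groups. The ribosomal precursor locus Rn45s averaged 27996 ± 6215 CPM in homozygous and 60760 ± 10462 CPM in wild-type libraries, and TMM factors were 1.04 to 1.12 in homozygous and 0.897 to 0.978 in wild-type libraries. The parts of these scaling and depletion differences in the results were not tested. Xist, the X-inactivation transcript of female cells, and the Y-linked Ddx3y were both counted in all 8 libraries, at 182 to 240 and 41.5 to 52.0 CPM in homozygous and 195 to 242 and 34.0 to 63.7 CPM in wild-type libraries. The genotypes overlapped for both. They did not for the Y-linked Kdm5d, at 44.2 to 53.9 CPM in homozygous and 28.9 to 33.9 CPM in wild-type libraries. Eif2s3y, also Y-linked, averaged 30.9 ± 14.4 CPM in homozygous and 5.15 ± 0.80 CPM in wild-type libraries (log2 fold change 2.60, SE 0.36). The cause of these differences was not tested.

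Ribosomal protein mRNAs were lower in homozygous hippocampus across both subunits. Of the 86 genes, 84 passed the filter on low counts, and 65 of these were called lower (20.4% of all genes tested), 3 higher (20.7%) and 16 neither. The 3 called higher (Rps27l, Rpl7l1 and Rpl3l) are paralogs, so that of the 77 ribosomal proteins 64 fell, 0 rose and 13 did not pass. The median log2 fold change was -1.07 over the 77 and 0.05 over all genes tested, which puts the ribosomal proteins 2.17-fold lower relative to the median gene. A fitted decrease of at least 2-fold was seen for 43 of the 77, against 4.34% of all genes tested. In 62 of the 77 every homozygous library lay below every wild-type library (18.8% of all genes tested). The 86 genes lie on 19 chromosomes, 4 of them on X. In whole tissue, fewer cells that hold an mRNA and less of it per cell cannot be told apart.

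How far they fell depended on the handling of transcript density. When each library's trend with density, its counts per kilobase of exon, was removed by a loess curve, 50 of the 84 genes were still called lower (against 16.5% of genes tested in that fit) and 4 higher (14.5%), and the median relative to all genes was -0.57, against -1.08 without that step. With a trend on abundance removed instead, 66 were called lower (18.2% of genes tested) and 1 higher (16.9%), and the relative median was -0.99. The 15 calls lost with the density trend removed included Rpl3, Rpl4, Rpl8 and Rps27a.

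**Figure D2:**
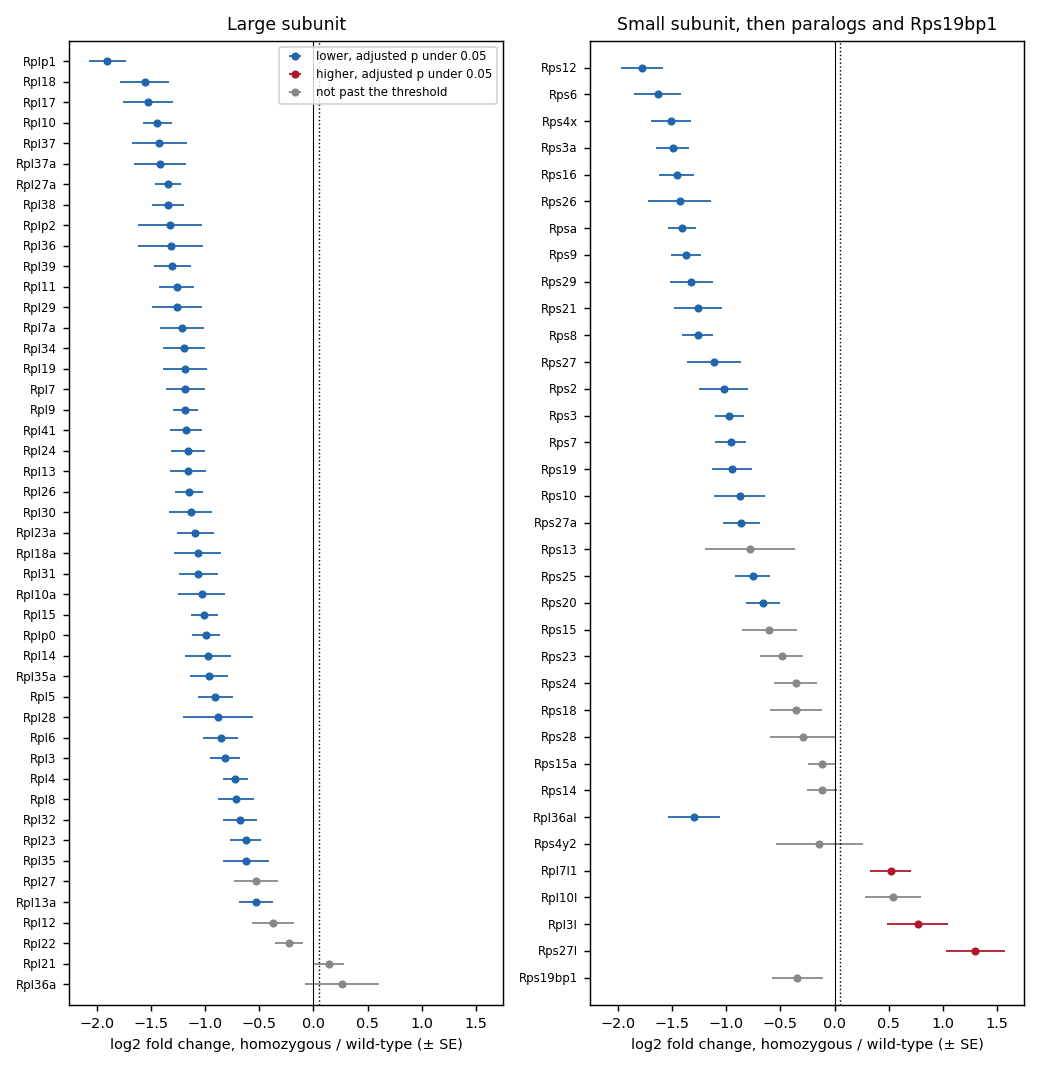
Log2 fold change (homozygous over wild-type) with its SE for those of the 84 genes tested that are reported by name, by subunit, with paralogs and Rps19bp1 at the foot of the right panel; colours give the call at an adjusted p under 0.05 in edgeR and the dotted line is the median of all genes (0.05). Nearly all large and small subunit genes lie left of that line, and the 3 genes called higher are paralogs.

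In the large subunit 41 of 46 proteins fell, and the median of their log2 fold changes was -1.11 over the 46. The P stalk, the flexible arm that recruits the GTPases of translation to the ribosome, fell in all of its 3 proteins. Rplp1 (chr9:61913284-61914542 of GRCm38, minus strand) was counted at 42.4, 37.5, 25.7 and 35.8 CPM in homozygous replicates 15 to 18 and at 126, 135, 112 and 158 CPM in wild-type replicates 7 to 10. Every homozygous library was far below the lowest wild-type library, and Rplp1 had the lowest fitted value of the large subunit, with a log2 fold change of -1.90 (SE 0.17, adjusted p 2.63e-05, edgeR with Benjamini-Hochberg adjustment). Rplp0, which anchors the stalk, averaged 34.4 ± 4.49 CPM in homozygous and 68.5 ± 7.17 CPM in wild-type libraries, and its log2 fold change was -0.99. Rplp2, the partner of Rplp1, averaged 2.33 ± 0.53 CPM in homozygous and 6.02 ± 1.79 CPM in wild-type libraries, and its log2 fold change was -1.33. These levels of Rplp2 rest on few reads, and the pseudogene row Rplp2-ps1 held more of them, with 224 counts in homozygous and 487 in wild-type libraries.

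Rpl5 and Rpl11 carry the 5S ribosomal RNA into the large subunit and, when free, bind Mdm2 and so stabilise p53. Rpl11 was counted at 43.3, 27.6, 40.8 and 35.5 CPM in homozygous replicates 15 to 18 and at 87.8, 96.6, 72.7 and 97.6 CPM in wild-type replicates 7 to 10. Rpl5 was counted at 66.9, 56.3, 74.6 and 99.2 CPM in homozygous replicates 15 to 18 and at 129, 149, 135 and 142 CPM in wild-type replicates 7 to 10. The groups were apart for both genes, although homozygous replicate 18 reached the highest Rpl5 level of its group. Log2 fold changes were -1.26 (SE 0.16) for Rpl11 and -0.90 (SE 0.16) for Rpl5, with adjusted p of 0.000246 and 0.00172 in edgeR with Benjamini-Hochberg adjustment. Exons of Rpl5 share 953 bases with Fam69a on the opposite strand. Whether counting used strand is not known from the sources.

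The ribosome's nascent chain leaves through a tunnel whose rim is built by a group of large subunit proteins, and 8 of 9 of them fell. Rpl17, at this rim, was counted at 25.3, 28.8, 37.0 and 27.9 CPM in homozygous replicates 15 to 18 and at 55.5, 106, 66.4 and 115 CPM in wild-type replicates 7 to 10. The wild-type libraries were uneven, with 8 and 10 above 7 and 9, yet all lay above the homozygous ones. The log2 fold change of Rpl17 was -1.53 (SE 0.23). Rpl18, whose human gene is among those mutated in Diamond-Blackfan anaemia, averaged 12.3 ± 4.25 CPM in homozygous and 36.2 ± 6.44 CPM in wild-type libraries, a log2 fold change of -1.56 (SE 0.23).

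The most abundant members by CPM were Rpl4, Rpl3, Rps3, Rpl15, Rpl8 and Rpl5, and all were called lower. Rpl4 lines the exit tunnel. It was counted at 131, 149, 139 and 134 CPM in homozygous replicates 15 to 18 and at 234, 215, 241 and 221 CPM in wild-type replicates 7 to 10, so that the spread within each genotype was small beside the gap between them. Its log2 fold change was -0.72 (SE 0.12, adjusted p 0.000855 in edgeR with Benjamini-Hochberg adjustment), or -0.08 with an adjusted p of 0.613 once the trend on density had been taken out. Rpl3 and Rpl8, which lie near the peptidyl transferase centre, had log2 fold changes of -0.82 and -0.71, or -0.20 and -0.06 with that trend removed. Rpl15, a Diamond-Blackfan gene, averaged 80.9 ± 8.14 CPM in homozygous and 163 ± 15.6 CPM in wild-type libraries, a log2 fold change of -1.01 (SE 0.13).

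Large subunit genes that did not pass were Rpl12, Rpl21, Rpl22, Rpl27 and Rpl36a. Rpl21 was counted at 64.5, 79.9, 54.4 and 74.6 CPM in homozygous replicates 15 to 18 and at 60.4, 66.1, 55.7 and 65.6 CPM in wild-type replicates 7 to 10, and the groups overlapped (log2 fold change 0.14, SE 0.14). Homozygous replicates 16 and 18 lay above all wild-type libraries and replicate 17 below them. Rpl21 was thus more spread in homozygous libraries. Rpl21 has 61 near-identical copies in the GENCODE transcripts (at least 95% identity over 200 bases), more than any other member. Rpl22, which also binds viral and telomerase RNAs, averaged 44.0 ± 6.28 CPM in homozygous and 51.4 ± 4.25 CPM in wild-type libraries (log2 fold change -0.23, SE 0.13). Rpl12, at the base of the stalk, reached 106 CPM in homozygous replicate 17 and 53.1 to 64.3 CPM in the other homozygous libraries, against 82.4 to 101 CPM in wild-type libraries. Without homozygous replicate 17 its log2 fold change was -0.63, and it passed (adjusted p 0.0048 in edgeR). The log2 fold change of Rpl27 was -0.53 (SE 0.20), and it passed without homozygous replicate 18 (-0.71, adjusted p 0.0185 in edgeR) and with the abundance trend removed (-0.63, adjusted p 0.0316). That of Rpl36a was 0.27 (SE 0.34).

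In the small subunit 23 of 31 proteins fell, and the median over the 31 was -0.97. Rps6 is the substrate of the S6 kinases, and its phosphorylation is widely used as a readout of mTORC1 activity in neurons. It was counted at 33.4, 36.6, 43.1 and 44.3 CPM in homozygous replicates 15 to 18 and at 87.4, 170, 90.2 and 141 CPM in wild-type replicates 7 to 10. The groups did not overlap, and again wild-type 8 and 10 stood above 7 and 9. Its log2 fold change was -1.63 (SE 0.22, adjusted p 0.000331 in edgeR with Benjamini-Hochberg adjustment). Rps12, a protein of the beak of the subunit, was counted at 18.2, 16.3, 16.2 and 21.4 CPM in homozygous replicates 15 to 18 and at 45.2, 83.4, 52.0 and 68.2 CPM in wild-type replicates 7 to 10. Homozygous libraries were close together and wild-type libraries spread upward from a level already more than 2-fold higher, which gave a log2 fold change of -1.78 (SE 0.20).

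Rps4x, encoded on the X chromosome, averaged 15.1 ± 3.49 CPM in homozygous and 43.0 ± 6.83 CPM in wild-type libraries, a log2 fold change of -1.51 (SE 0.19). Rps3, which lines the mRNA entry channel, averaged 85.6 ± 13.5 CPM in homozygous and 168 ± 8.48 CPM in wild-type libraries, a log2 fold change of -0.97 (SE 0.13). Of the 6 proteins listed at the mRNA entry and exit sites, 4 fell. Rpsa, also known as a laminin receptor, was counted at 64.1, 51.7, 63.0 and 52.2 CPM in homozygous replicates 15 to 18 and at 148, 146, 147 and 174 CPM in wild-type replicates 7 to 10, with no overlap and a log2 fold change of -1.41 (SE 0.13). Rps19, the gene most often mutated in human Diamond-Blackfan anaemia, averaged 12.4 ± 2.95 CPM in homozygous and 23.99 ± 2.996 CPM in wild-type libraries (log2 fold change -0.95, SE 0.18). Of 19 ribosomal protein genes linked to that anaemia, 15 fell and 0 rose, with a median of -0.97.

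Among small subunit genes that did not pass, Rps14 and Rps15a had the fitted values nearest 0. Rps14, whose human gene lies in the region deleted in the 5q- syndrome, was counted at 75.1, 75.5, 90.8 and 95.4 CPM in homozygous replicates 15 to 18 and at 96.6, 79.0, 81.8 and 107 CPM in wild-type replicates 7 to 10. Rps15a was counted at 54.4, 65.3, 49.2 and 52.5 CPM in homozygous replicates 15 to 18 and at 56.1, 69.8, 55.8 and 59.3 CPM in wild-type replicates 7 to 10. The groups overlapped for both genes and each log2 fold change was -0.12, with SE of 0.14 and 0.13. Both values changed sign when libraries were scaled by their totals alone (0.08 for each gene), and Rps14 was called higher once the trend on density had been taken out (0.55, with an edgeR adjusted p of 0.00942), as was Rpl21 (0.51, adjusted p 0.0222). Rps24, a Diamond-Blackfan gene, and Rps23, a protein of the decoding centre, had log2 fold changes of -0.36 (SE 0.20) and -0.49 (SE 0.20) and did not pass. Both passed without homozygous replicate 18 (-0.56 with adjusted p 0.026 for Rps24, -0.64 with adjusted p 0.0292 for Rps23, edgeR), and Rps23 also with the abundance trend removed (adjusted p 0.0376).

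Rps13 and Rps15, named after their values were seen, did not pass with all libraries but did when particular libraries were left out. Rps13 was counted at 15.5, 16.6, 52.3 and 8.22 CPM in homozygous replicates 15 to 18 and at 33.9, 40.0, 40.3 and 43.5 CPM in wild-type replicates 7 to 10. Homozygous replicate 17 lay above all wild-type libraries and the other homozygous libraries below them. The log2 fold change of Rps13 was -0.78 (adjusted p 0.148 in edgeR) with all libraries and -1.54 (adjusted p 0.000587) without homozygous replicate 17. Rps15 was counted at 45.04, 44.7, 93.1 and 46.1 CPM in homozygous replicates 15 to 18 and at 95.1, 58.0, 94.6 and 97.6 CPM in wild-type replicates 7 to 10. Homozygous replicate 17 was high and wild-type replicate 8 low within their groups. Rps15 had a log2 fold change of -0.60 (adjusted p 0.0766 in edgeR), and it passed without homozygous replicate 17 (-0.94, adjusted p 0.00316) and without wild-type replicate 8 (-0.76, adjusted p 0.0306). With the density trend removed its value was 0.03.

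**Figure D3:**
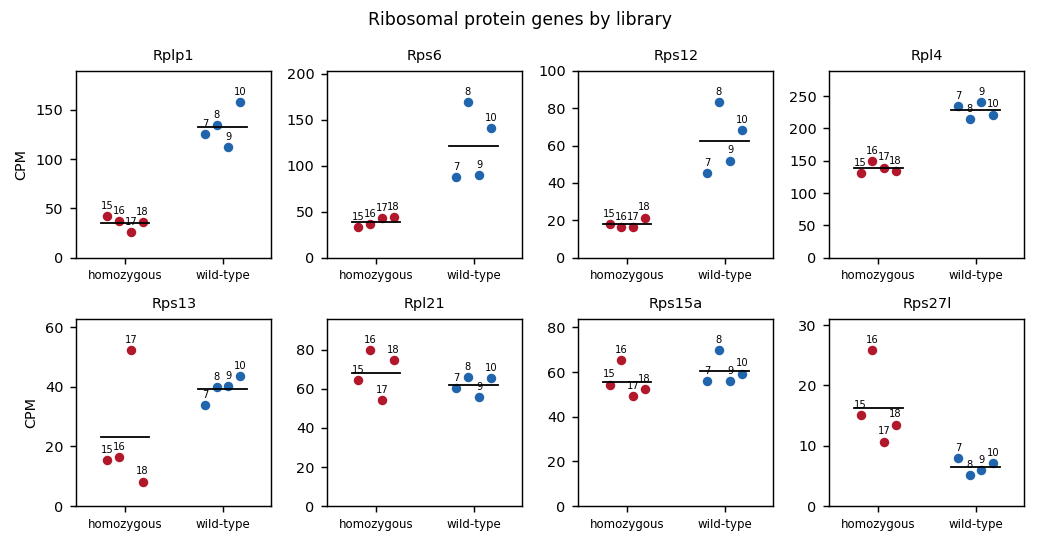
CPM of 8 members in each library, with replicate numbers beside the points and a line at the mean of each genotype (n = 4). Homozygous libraries lie below wild-type libraries for Rplp1, Rps6, Rps12 and Rpl4, the groups overlap for Rpl21 and Rps15a, homozygous replicate 17 stands apart for Rps13, and Rps27l is higher in all homozygous libraries.

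Some ribosomal proteins are made as fusions or stand outside the naming scheme. Rps27a is translated as a fusion of ubiquitin with a small subunit protein. It was counted at 36.9, 34.8, 36.7 and 58.4 CPM in homozygous replicates 15 to 18 and at 70.3, 81.0, 67.2 and 84.4 CPM in wild-type replicates 7 to 10. No homozygous library reached the wild-type range, and the log2 fold change was -0.86 (SE 0.17). Fau, a fusion of a ubiquitin-like protein with a small subunit protein, had a log2 fold change of -1.07 (SE 0.16). The scaffold protein Rack1, listed as Gnb2l1, averaged 61.7 ± 2.59 CPM in homozygous and 133 ± 8.80 CPM in wild-type libraries (log2 fold change -1.11, SE 0.11). All of these were called lower at an adjusted p under 0.05 in edgeR, although the naming rule did not select Fau or Gnb2l1.

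The paralogs differed in direction, with 3 of the 6 tested called higher and 1 lower. These are gene copies, several restricted to certain tissues, that resemble a standard ribosomal protein and can take its place or act apart from it. Rps27l (chr9:66946086-66949516 of GRCm38, plus strand), a paralog of Rps27 and a target of p53, was counted at 15.01, 25.8, 10.7 and 13.5 CPM in homozygous replicates 15 to 18 and at 7.93, 5.09, 5.94 and 7.15 CPM in wild-type replicates 7 to 10. All homozygous libraries were above all wild-type libraries, and replicate 16 was the highest. Its log2 fold change was 1.30 (SE 0.27, adjusted p 0.00369 in edgeR with Benjamini-Hochberg adjustment), and 0.99 without homozygous replicate 16. Its standard partner Rps27, by contrast, was counted at 10.8, 12.2, 17.1 and 10.6 CPM in homozygous replicates 15 to 18 and at 20.4, 34.2, 18.9 and 36.4 CPM in wild-type replicates 7 to 10, with a log2 fold change of -1.11 (SE 0.25).

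Rpl7l1, a paralog of Rpl7 that acts in assembly of the large subunit, was counted at 34.8, 29.9, 54.1 and 37.0 CPM in homozygous replicates 15 to 18 and at 29.1, 21.02, 28.7 and 29.0 CPM in wild-type replicates 7 to 10. The homozygous libraries lay only slightly above the wild-type ones except for replicate 17. The log2 fold change was 0.52 (SE 0.19, adjusted p 0.0448 in edgeR), and it was 0.31 (adjusted p 0.133) without homozygous replicate 17. Rpl3l, which stands in for Rpl3 in striated muscle, averaged 10.7 ± 1.72 CPM in homozygous and 6.62 ± 3.09 CPM in wild-type libraries (log2 fold change 0.77, SE 0.28, adjusted p 0.0488 in edgeR), and wild-type replicate 8 at 10.8 CPM lay within the homozygous range. Each of these calls was lost in 6 or 7 of the 8 fits that left out a library, whereas Rps27l was called in all 8.

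The testis paralog Rpl10l had a log2 fold change of 0.54 (SE 0.26), and Rps4y2, which GENCODE gives as a processed pseudogene named Rps4l on chromosome 6, of -0.14 (SE 0.40), and neither passed. With libraries scaled by their totals alone Rpl10l was called higher (0.73, adjusted p 0.0413 in edgeR). Rpl36al was the only paralog that fell, at 7.07, 3.78, 7.52 and 6.16 CPM in homozygous replicates 15 to 18 and 12.6, 14.9, 13.0 and 20.6 CPM in wild-type replicates 7 to 10 (log2 fold change -1.30, SE 0.24). Rpl22l1 and Rpl39l were removed by the low-count filter. Rpl22l1 had 4, 3, 7 and 5 counts in homozygous replicates 15 to 18 and 9, 4, 13 and 6 in wild-type replicates 7 to 10. Rpl39l had 16, 10, 13 and 6 counts in homozygous replicates 15 to 18 and 10, 7, 9 and 10 in wild-type replicates 7 to 10.

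Per kilobase of transcript, levels of the 77 ribosomal proteins ran from 2.42 to 141 CPM in homozygous and from 5.61 to 304 CPM in wild-type libraries, with medians of 31.5 and 67.9. Their order was much the same in both genotypes, with a Spearman rho of 0.92 across the 77 genes, which share libraries and lengths and are not independent replicates. Across the 84 genes tested the fold change had a rho of 0.26 with transcript length, -0.03 with mean CPM and -0.05 with GC content. Across 18296 other protein-coding genes rho was -0.04 with length, -0.30 with mean CPM and -0.09 with GC content. More abundant genes outside the 84 thus tended to lower fold changes. Of 415 other protein-coding genes under 1 kb with at least 10 CPM, 205 fell and 65 rose, with a median log2 fold change of -0.51, against 42 and 1 of the 49 members of that length and level, with a median of -1.17.

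**Figure D4:**
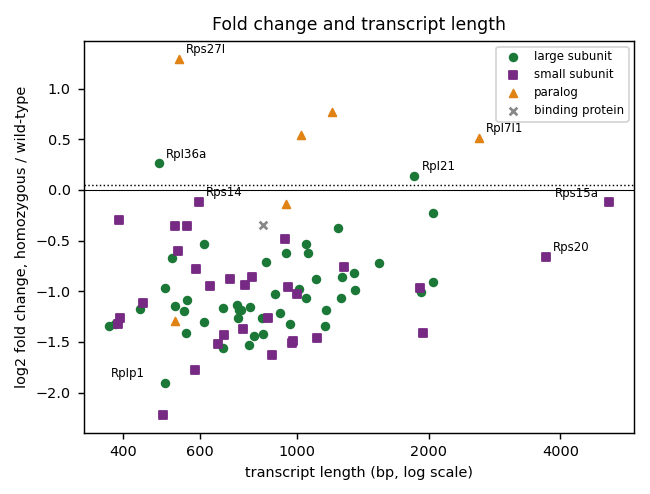
Log2 fold change of the 84 genes tested against transcript length (bp, log scale), by class, with the median of all genes as a dotted line. Genes that fell include short and long transcripts, and those near 0 run from short ones such as Rps14 to the long Rps15a.

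Libraries of the same genotype also differed in these genes. Among the 77 ribosomal proteins wild-type replicate 10 was the highest wild-type library for 42, and wild-type 8 and 10 both exceeded 7 and 9 for 38, while the reverse held for 8. Over all genes tested those shares were 22.4% and 21.9%. In homozygous hippocampus replicate 17 was the highest library for 31 of the 77. The median coefficient of variation over the 77 was 18.8% in homozygous and 15.6% in wild-type libraries, against 16.01% and 12.8% for all genes with at least 10 CPM.

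Near-identical copies limit what the counts can resolve. Any other GENCODE gene with a match of at least 95% identity over 200 bases was scored as a near copy, on either strand. At least 1 such match was found for 77 of the 86 genes, 628 in all, of which 21 have a row of their own in the table. These matches include genes that overlap a member at its own locus and are not copies of it. Examples are Fam69a with Rpl5 (953 bases) and Trappc4 with Rps25 (462 bases), each on the opposite strand. The pseudogene row Rpl34-ps1 differed from Rpl34 by 0 to 4 counts in each library, so that these rows hold nearly the same reads. Adding pseudogene counts therefore counted such reads again. Gm15772 had the same totals as Rpl26, at 663 counts in homozygous and 1720 in wild-type libraries. Gm12191 had 316 and 798 counts, against 321 and 801 for Rpl30. Other rows differed more, such as Gm8580 with 268 and 104 counts against 78 and 219 for Rpl29. Of the 8 genes tested without a near copy, 4 fell and 2 rose, and those that fell include Rpl8 and Rpl39. Exons of 18 members overlap another gene by at least 50 bases, and of the 67 tested without such overlap 49 fell and 3 rose.

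Other genes of translation were taken from lists of known roles and described in the same fit. Of 13 elongation and release factors 11 fell (median -0.64). Eef1a1, which delivers aminoacyl-tRNA, averaged 407 ± 37.5 CPM in homozygous and 827 ± 89.4 CPM in wild-type libraries, and Eef2, the translocase, averaged 355 ± 35.6 CPM in homozygous and 755 ± 115 CPM in wild-type libraries. Of 37 initiation factors 24 fell and 2 rose (median -0.51), and the cap-binding protein Eif4e had a log2 fold change of -1.003 (SE 0.13). The Y-linked Eif2s3y was among the 2 that rose. The rows Gm9781 and Eif3j, neither of them called, both averaged 30.8 ± 5.08 CPM in homozygous libraries and may hold the same reads. Of 20 further mRNAs known to carry a TOP tract, some of them in the lists just given, 14 fell and 0 rose (median -0.70), among them Tpt1, a growth-related calcium-binding protein (log2 fold change -1.21, SE 0.13).

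Genes that build or regulate ribosomes gave smaller medians. Of 45 ribosome biogenesis factors 10 fell, 6 rose and 29 did not pass, with a median of -0.05. That is 22.2% lower and 13.3% higher, against 20.4% and 20.7% of all genes tested. Nop10, part of the particles that make pseudouridine in ribosomal RNA, fell to 8.19 ± 1.94 CPM in homozygous libraries, against 22.1 ± 3.47 CPM in wild-type libraries. Mrto4, an assembly factor related to Rplp0, rose to 39.9 ± 10.8 CPM in homozygous libraries, against 22.1 ± 2.27 CPM in wild-type libraries. Of 22 genes of mTORC1 and translation control 6 fell and 2 rose (median -0.15), which is 27.3% lower and 9.09% higher. Mtor itself had a log2 fold change of -0.53 (SE 0.14) and Rps6kb1, the S6 kinase that phosphorylates Rps6, of 0.49 (SE 0.13).

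Outside cytosolic translation, lists of other housekeeping genes also shifted downward, with medians nearer 0 than that of the cytosolic ribosomal proteins. Of 76 mitochondrial ribosomal proteins 30 fell and 4 rose (median -0.45), of 37 subunits of respiratory complex I 24 fell and 1 rose (median -0.76), and of 40 proteasome subunits 24 fell and 2 rose (median -0.56). Differences between these medians were not tested.

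**Figure D5:**
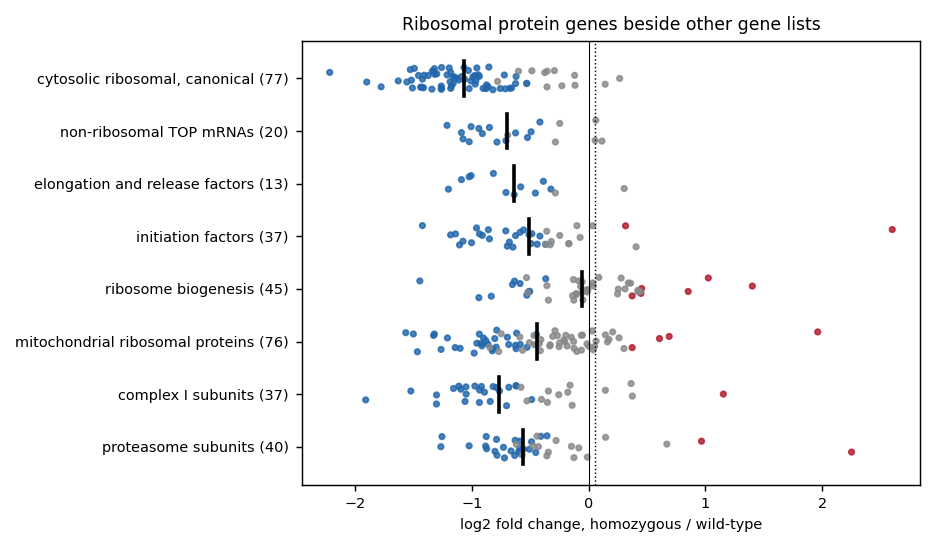
Log2 fold changes of the genes in each list, 1 point a gene, with the median of the list as a bar, the median of all genes as a dotted line and calls at an adjusted p under 0.05 in colour (blue lower, red higher). The 77 ribosomal proteins have a median of -1.07, and that of ribosome biogenesis (-0.05) lies near the line.

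Markers of neurons, astrocytes and oligodendrocytes were called lower more often than the 20.4% of all genes tested, and the share called lower ran from 0% to 28.6% in the other lists except that of red blood cells. Of 10 neuron and hippocampal field markers 6 fell and 1 rose, and their summed level ran from 1969 to 2368 CPM in homozygous and from 2426 to 3293 CPM in wild-type libraries. Of 7 astrocyte markers 4 fell (2265 to 2447 CPM in homozygous, 3273 to 4100 CPM in wild-type libraries), and of 7 oligodendrocyte markers 5 fell (948 to 1168 CPM in homozygous, 1388 to 2212 CPM in wild-type libraries). The summed levels of each of these lists did not overlap. Of 8 microglia markers 2 fell, and their sums overlapped, at 212 to 292 CPM in homozygous and 217 to 269 CPM in wild-type libraries. Of 7 endothelial markers 2 fell and 2 rose (138 to 188 CPM in homozygous, 140 to 161 CPM in wild-type libraries). Of 7 choroid plexus markers 1 fell and 1 rose, and of 9 markers of neighbouring striatum and thalamus 0 fell and 2 rose. Choroid plexus markers varied from library to library, at 116 to 864 CPM in homozygous and 193 to 1205 CPM in wild-type libraries, as did those of striatum and thalamus, at 269 to 314 CPM in homozygous and 232 to 401 CPM in wild-type libraries. Of the 4 red blood cell markers with a row, 3 fell and 1 rose (43.1 to 84.8 CPM in homozygous, 48.5 to 99.3 CPM in wild-type libraries). No marker in the table was at 0 in all libraries, and the part of cell makeup in the results was not tested.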

How the data were processed

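Total RNA of hippocampus was depleted of ribosomal RNA and read on the SOLiD 4 platform (50 bases forward, 35 reverse), per the labels. Raw read counts for each gene symbol in 8 libraries were deposited by the authors as a single table, whose genome build is mm10 per the submitters' processing notes. No aligner, counter, strand setting or annotation is named in the sources used here.

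Genes were filtered with filterByExpr, scaled by TMM and tested over all 8 libraries with edgeR 4.0.16 in R 4.3.3 (quasi-likelihood, two-sided, no covariate), with Benjamini-Hochberg adjustment over 20478 genes and a threshold of 0.05. The SE of a log2 fold change was derived from the F statistic. Lengths, positions and copies came from GENCODE M21 (GRCm38), and promoters from RefSeq. The length of a gene is the median over its RefSeq-linked transcripts.

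The members and all lists were chosen with earlier results of these data known. Genes named are, at a mean of at least 10 CPM, the 8 lowest and up to 8 highest called members, the 8 nearest 0 that were not called and the 6 of highest CPM, plus the P stalk, 5S particle, paralogs, chosen roles and up to 3 called genes of smallest p per other list; others are marked. Some genes that this rule selects are not reported by name here, and the counts and medians keep them. Symbols were matched to GENCODE by current or older name.

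Alternatives were DESeq2-type size factors, library totals, other low-count filters, removal of ribosomal-RNA-like loci (Rn45s and Lars2), a robust fit, DESeq2 1.42.0, limma-voom (limma 3.58.1), a threshold of 0.1, loess trends on abundance or counts per kilobase (span 0.3), addition of pseudogene counts, and each library left out. The edgeR code was tested on simulated data. Tables and figures used Python 3.11.15, pandas 2.3.3 and matplotlib 3.10.9.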

Additional observations from a re-analysis of the deposited data

Results flagged for a closer look

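The 74 groups of 4 libraries looked at were for named genes but not for all of them, and Rps15 and Fau were left out. Rps15 had homozygous replicate 17 at 93.1 CPM against 44.7 to 46.1 CPM, and wild-type replicate 8 at 58.0 CPM against 94.6 to 97.6 CPM. Fau had wild-type replicate 10 at 63.3 CPM against 43.2 to 45.8 CPM. Of the 74 groups, 5 held a library far from the other 3 by Dixon's criterion, and chance flags about 1 in 20 groups. In wild-type hippocampus, replicate 10 was low for Rps4x, at 32.8 CPM against 45.0 to 47.5 CPM in the others. The same library was high for Rpsa, at 174 CPM against 146 to 148 CPM, and for Rpl10l, at 6.73 CPM against 3.64 to 4.07 CPM. Wild-type replicate 8 was low for Rpl7l1, at 21.02 CPM against 28.7 to 29.1 CPM. In homozygous hippocampus, replicate 18 was high for Rps27a, at 58.4 CPM against 34.8 to 36.9 CPM. Without wild-type replicate 10 Rpl10l passed the threshold (log2 fold change 0.78, adjusted p 0.0318 in edgeR), against 0.54 (adjusted p 0.113) with it.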

How the results depend on the processing

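The number of members called lower was 62 to 70 under every setting run (65 in the fit reported) except with the trend on counts per kilobase of exon removed (50) and, chosen after seeing the data, on counts per kilobase of transcript (52); the share of all genes called lower was 11.8% to 24.7% over the settings. The median relative to all genes was -0.57 and -0.61 in those fits and -0.99 to -1.13 in the others. The number called higher (3 in the fit reported) was 1 with DESeq2-type size factors, without a low-count filter, with 1 CPM in 4 libraries and with the abundance trend removed, 4 with library totals (Rpl10l added) and with either density trend removed, and ran from 1 to 3 as each library was left out; Rps27l was called in all settings. With ribosomal-RNA-like loci left out the share of counts was 0.317% in homozygous and 0.556% in wild-type libraries.

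Signs turned for 9 members in at least 1 setting, of which Rpl13a had passed the test (-0.53, and 0.037 with the trend on counts per kilobase of exon removed). With library totals, which move the median of all genes from 0.05 to 0.25, Rps14 was at 0.077, Rps15a at 0.083 and Rps4y2 at 0.058, and the lower calls of Rpl13a, Rpl28 and Rpl35 were lost. Rps14 was at 0.052 with the abundance trend removed. With the trend on counts per kilobase of exon removed Rps14 was at 0.55, Rpl22 at 0.047, Rps24 at 0.065, Rps15 at 0.029 and Rpl12 at 0.14, and with that per kilobase of transcript Rps14 was at 0.52, Rps24 at 0.26, Rps15 at 0.019 and Rpl12 at 0.095. Rps28 was at 0.011 without wild-type replicate 9. Rps4y2 ran from -0.61 to 0.071 as each library was left out. The cause of these changes was not tested. No paired analysis was possible because the genotypes share no replicate numbers. At 3250949 counts in the shallowest library, members at a few CPM such as Rplp2 rest on 6 to 43 counts a library.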
